A study of Homo sapiens with 20 samples.

Results

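RNA polymerases I, II and III (Pol I, Pol II and Pol III) are the enzymes that copy the nuclear genome into RNA, and the genes that encode their subunits were followed here after tet withdrawal in U937T cells, with and without an EVI1 transgene. Members are the protein-coding genes whose symbol in the array annotation starts with POLR1, POLR2 or POLR3 followed by 1 letter. For each gene, the probe set (a group of probes for 1 transcript) with the highest mean over the 20 arrays was used, among probe sets that carry 1 gene symbol. This gave 30 genes of the 17860 genes tested. By the known make-up of the enzymes, 6 of them belong to Pol I alone (POLR1A, POLR1B, POLR1E, POLR1F, POLR1G and POLR1H) and 2 are shared by Pol I and Pol III (POLR1C and POLR1D). Another 8 belong to Pol II alone (POLR2A, POLR2B, POLR2C, POLR2D, POLR2G, POLR2I, POLR2J and POLR2J2), 5 are shared by all 3 enzymes (POLR2E, POLR2F, POLR2H, POLR2K and POLR2L), and 9 belong to Pol III alone (POLR3A, POLR3B, POLR3C, POLR3D, POLR3E, POLR3F, POLR3G, POLR3GL and POLR3K). POLR2J3 and POLR2M were met only on probe sets with several symbols, and POLR1HASP and POLR2J4 are not protein coding.

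Pol I makes the large ribosomal RNA precursor in the nucleolus, Pol II makes messenger RNAs and many small noncoding RNAs, and Pol III makes transfer RNAs, the small ribosomal RNA of the large ribosomal subunit and other short transcripts. Each enzyme has a core in which its largest and its second largest subunit form the catalytic cleft, a set of small subunits common to all of them, and peripheral subunits for initiation and termination. Pol I and Pol III together feed the supply of ribosomes and transfer RNAs, and their output is known to follow the growth rate of a cell and the level of the transcription factor MYC.

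All 4 lines derive from U937, a human myeloid leukemia line. Clones E10 and E14 (U937T_EVI1-HA) carry an HA-tagged human EVI1 cDNA that tet represses, clone P2 (U937T_vec) carries the empty vector, and U937T is the parental line. Cells grown with tet were washed and placed into medium without tet, or with tet as the matched control, and RNA was taken from E10 and E14 at 6, 12, 24 and 48 h but from P2 and U937T at 48 h only. Every culture gave 1 array, so that each of the 10 groups held 2 arrays, 1 from each clone or each control line. Hence EVI1 induction was seen in 2 clones, and no control line was measured at 6, 12 or 24 h. The model removes a constant difference between lines, so p-values measure how unevenly the lines differed from culture to culture. Within a gene, that spread was estimated mostly from E10 and E14, which gave most of the arrays. The RNA came from whole cultures, in which fewer cells of a type and less RNA per cell cannot be told apart.

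The values are log2 intensities as deposited by the authors, and each change below is the log2 intensity without tet minus that with tet. The 20 arrays entered 1 limma model that held the cell line as a block, and a gene was called lower or higher at a Benjamini-Hochberg adjusted p under 0.05 over all 17860 genes. The EVI1-specific response is the change in E10 and E14 at 48 h minus that in P2 and U937T at 48 h, and it therefore shares its arrays with both. MECOM, the gene that encodes EVI1, read between 7.06 and 7.34 on the 8 arrays of E10 and E14 with tet, between 5.91 and 6.90 on the 4 arrays of the control lines, and 10.51 and 9.98 in E10 and E14 after 48 h without tet. Its change was 1.46 at 6 h (adjusted p = 0.11) and 2.65 at 12 h (adjusted p = 4.3e-05). It was 2.32 at 24 h (adjusted p = 5.1e-06) and 3.10 at 48 h (adjusted p = 6.8e-08). Of the 7 myeloid markers measured, SPI1, LYZ, CEBPA, ITGB2, CSF3R and AZU1 had medians from 9.05 to 12.1 over the arrays and MPO one of 4.97. Medians of the 12 lymphoid, erythroid and megakaryocyte, and epithelial and fibroblast markers lay between 2.95 and 7.85, with CD79A and GATA1 at the top of that range. The signal of actin and GAPDH probes at the 3′ end minus that at the 5′ end, a measure of RNA integrity, ran from 0.19 to 1.52 over the arrays. It was highest in E14 at 24 h, with 1.52 with tet and 1.40 without, and it differed between the E14 cultures at 12 h (1.02 and 0.46). At 48 h it was 0.66 with and 0.68 without tet in E10, 0.74 and 0.84 in E14, 0.84 and 0.99 in P2, and 1.06 and 0.74 in U937T.

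After 48 h without tet, all genes for subunits of Pol I alone and most of those for Pol III alone fell in the EVI1 clones, while most genes for subunits of Pol II alone stayed near their level with tet. Of the 30 members, 19 were called lower in E10 and E14 and 1, POLR3GL, was called higher, against 14.7% of all genes called lower and 16% called higher. The median change of the members was -0.60, and that of all genes -0.04. All 6 subunits specific to Pol I fell, from -0.34 for POLR1F to -1.67 for POLR1G, with a median of -1.32. Both subunits shared by Pol I and Pol III fell as well, POLR1C by 1.29 and POLR1D, with the probe set used, by 0.72 on the log2 scale. Among the 9 subunits specific to Pol III, 6 fell and POLR3GL rose, and their median was -0.76.

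The 8 subunits specific to Pol II had a median change of 0.02, and 2 of them fell. These were POLR2I, a small zinc-binding subunit that takes part in cleavage of the transcript and in fidelity (-0.88, adjusted p = 1.6e-06), and POLR2D, a subunit of the stalk (-0.80, adjusted p = 0.0086). Of the 5 subunits common to all enzymes, POLR2F, POLR2H and POLR2E fell by 0.77, 0.60 and 0.42, whereas POLR2K (0.05) and POLR2L (0.01) were not called. The fall was of like size in both clones. For subunits specific to Pol I, the median change at 48 h was -1.32 in E10 and -1.31 in E14, for those specific to Pol III -0.74 and -0.66, and for those specific to Pol II 0.02 and -0.01. Without E10 the number of members called was 13, and without E14 it was 11, in fits where the lone clone left is assumed to vary like the other lines.

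**Figure D1:**
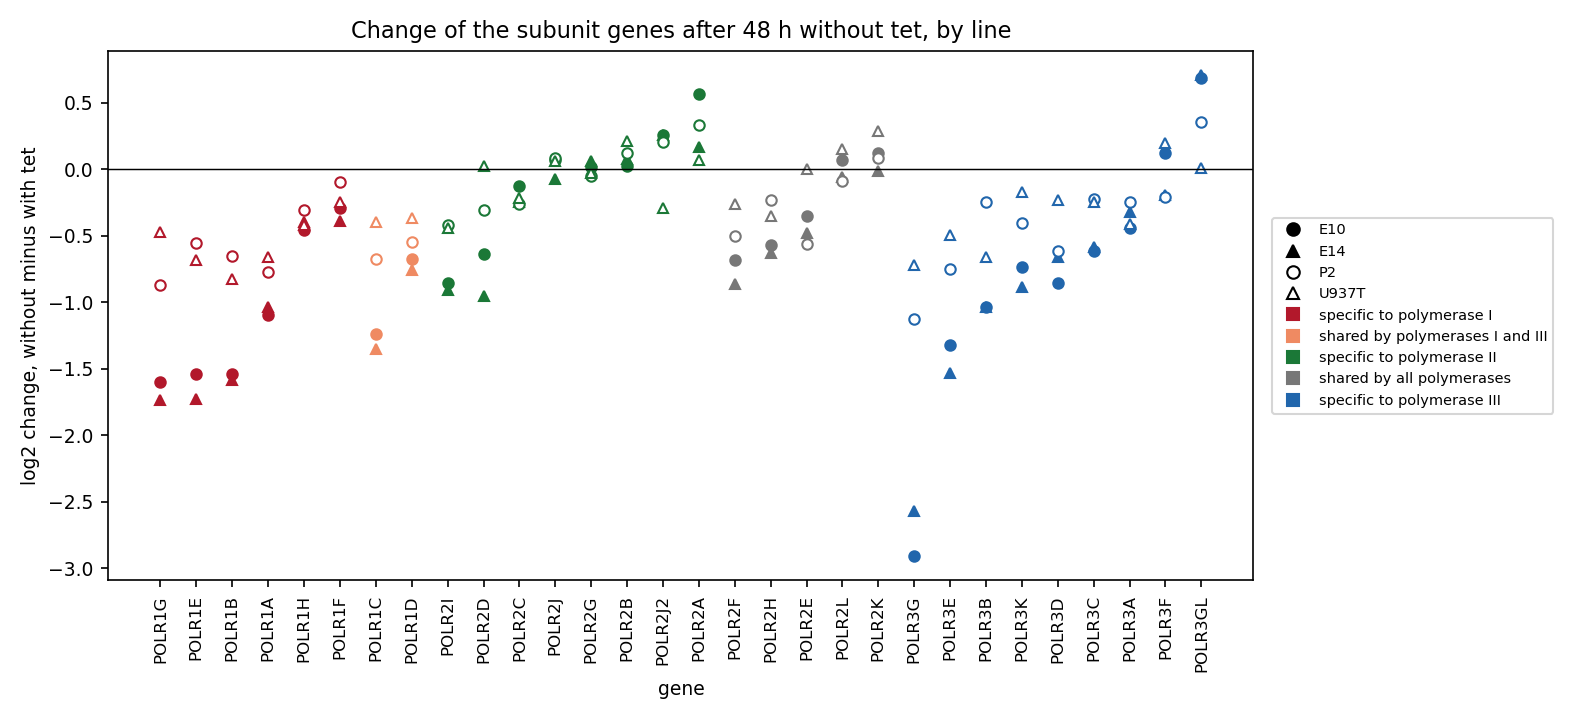
Difference of log2 intensity at 48 h between the cultures without and with tet for each of the 30 subunit genes, 1 point per line, with filled symbols for the EVI1 clones E10 and E14 and open symbols for the control lines P2 and U937T. Genes are grouped by enzyme and ordered within each class by their change in the clones. Filled symbols of POLR1G, POLR1E and POLR1B lie between -1.54 and -1.73, and those of POLR3G at -2.91 and -2.57, while POLR3GL lies above 0 in both clones.

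Subunit genes were also lower in the control lines, to a smaller extent. In P2 and U937T at 48 h, 14 members were called lower and none higher, against 5.3% and 5.41% of all genes, and the median change of the members was -0.29, beside -0.02 for all genes. Each of these 14 was also among the 19 called lower in the clones. Lower calls were made for 5 of 6 subunits specific to Pol I (median -0.64), both shared by Pol I and Pol III (median -0.50), 4 of 9 specific to Pol III (median -0.33), 2 of 5 shared by all enzymes (median -0.28) and 1 of 8 specific to Pol II (median -0.04). The order of the 3 enzymes was the same in P2 and in U937T, with medians of -0.60 and -0.56 for Pol I, -0.25 and -0.25 for Pol III, and 0.02 and -0.00485 for Pol II. The count was sensitive to the arrays used. It was 9 without the E14 arrays at 12 and 24 h, 6 without E10 and also without E14, 4 without P2 and 7 without U937T.

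Beyond the change in the control lines, 7 members were lower in the EVI1 clones and none was higher, against 3.03% of all genes called lower and 2.43% called higher in the EVI1-specific response. They were POLR3G, POLR1E, POLR1G, POLR1B, POLR3E, POLR1C and POLR2I. By enzyme, they made up 3 of the 6 subunits specific to Pol I (median EVI1-specific response -0.59), 1 of the 2 shared by Pol I and Pol III, 2 of the 9 specific to Pol III (median -0.36), 1 of the 8 specific to Pol II (median -0.01) and 0 of the 5 shared by all enzymes (median -0.14). At an unadjusted p under 0.05, 14 members were lower and 1 was higher in this contrast, against 8.84% and 8.99% of all genes at that threshold. For 18 of the 30 members the changes of both clones lay below those of both control lines, and for 3 they lay above. POLR2B is counted among the 18 although its changes in the clones were slightly above 0 (0.03 and 0.08, against 0.12 in P2 and 0.21 in U937T). Among all genes, 22.9% lay below and 22.8% above in this way. The 18 comprised 5 of 6 subunits specific to Pol I, both shared by Pol I and Pol III, 3 of 8 specific to Pol II, 2 of 5 common subunits and 6 of 9 specific to Pol III. Only POLR3G was still called without E10 and without E14, and POLR3G, POLR1E, POLR1G and POLR1B were called when U937T was left out.

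**Figure D2:**
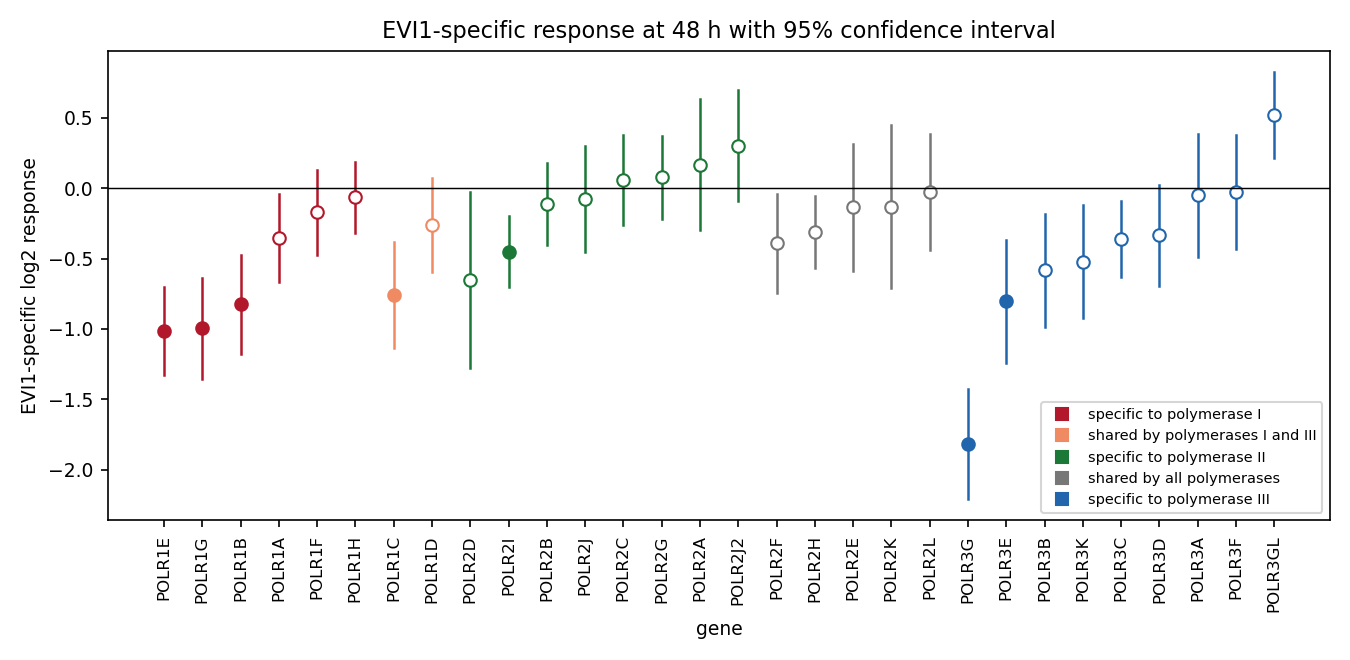
EVI1-specific log2 response at 48 h (change in E10 and E14 minus change in P2 and U937T) of the 30 subunit genes, with 95% confidence intervals from the limma fit and filled circles for the 7 genes with an adjusted p under 0.05. POLR3G has the lowest value (-1.82), and subunits specific to Pol II other than POLR2I and POLR2D lie between -0.11 and 0.30.

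The 6 subunits specific to Pol I fell by different amounts, with catalytic and peripheral subunits interspersed. POLR1A, the largest subunit, read 9.13 with and 8.04 without tet in E10 at 48 h, 9.20 and 8.16 in E14, 9.20 and 8.42 in P2, and 9.19 and 8.54 in U937T. In the 24 h cultures it read 9.26 with and 8.44 without tet in E10, and 9.35 and 8.40 in E14. Its level was lower without tet in all 4 lines. With this probe set, the changes of the clones (-1.10 and -1.04) lay only slightly below those of the control lines (-0.78 and -0.66). The EVI1-specific response of POLR1A was -0.35 (SE 0.14, adjusted p = 0.21, not called). Its other sets were further apart at 48 h. A set with a mean log2 intensity of 8.12 changed by -1.07 in E10, -1.38 in E14, -0.53 in P2 and -0.51 in U937T. For a set with a mean of 7.38 these changes were -0.72, -0.97, -0.12 and -0.17. The size of this response thus depends on the probe set.

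POLR1B, the second largest subunit, completes the catalytic cleft with POLR1A. At 48 h its log2 intensity was 9.55 with and 8.01 without tet in E10, 9.65 and 8.06 in E14, 9.50 and 8.84 in P2, and 9.66 and 8.84 in U937T. At 24 h it had already reached 8.37 in E10 and 8.35 in E14 without tet, against 9.74 and 9.85 with tet. The cultures with tet of all lines overlapped, and those of the clones without tet lay below those of the control lines. The change was -1.56 in the clones and -0.74 in the control lines, and the EVI1-specific response was -0.82 (SE 0.16, adjusted p = 0.0086). This call was lost without E10, without E14 and without P2 (adjusted p = 0.26, 0.33 and 0.062), with values from -0.85 to -0.74.

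POLR1E and POLR1G form a heterodimer at the edge of Pol I that acts in initiation and elongation. POLR1E read 9.39 with and 7.85 without tet in E10 at 48 h, 9.44 and 7.71 in E14, 9.02 and 8.47 in P2, and 9.12 and 8.44 in U937T. POLR1G read 9.82 and 8.22 in E10, 10.10 and 8.36 in E14, 10.05 and 9.18 in P2, and 10.09 and 9.62 in U937T. Both partners thus lay lower without tet in the clones than in the control lines, without overlap.

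With tet, POLR1E was also somewhat higher in the clones than in P2 and U937T at 48 h, and POLR1G was not. At 24 h, POLR1E read 9.35 with and 8.31 without tet in E10, and 9.38 and 8.18 in E14. For POLR1G these values were 10.25 and 8.91 in E10, and 10.61 and 9.22 in E14. The fall was thus present by 24 h in both genes. The EVI1-specific response was -1.02 for POLR1E (SE 0.15, adjusted p = 0.00097) and -0.997 for POLR1G (SE 0.17, adjusted p = 0.0030). Without E10 the adjusted p rose to 0.11 and 0.17, and without E14 to 0.23 and 0.26, at values from -0.92 to -1.11. A weaker POLR1E probe set fell by 1.14 and 2.10 in E10 and E14 but also by 1.40 and 1.21 in P2 and U937T, and with it the EVI1-specific response was -0.31 (adjusted p = 0.92). The remaining POLR1E set (mean log2 intensity 6.29) changed by -1.57 and -1.40 in E10 and E14, and by -0.45 and -0.48 in P2 and U937T.

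POLR1F, which forms the stalk that contacts the initiation factor RRN3, and POLR1H, the small subunit that acts in transcript cleavage, moved least among the subunits specific to Pol I. Their changes at 48 h were -0.34 and -0.43 in the clones and -0.17 and -0.36 in the control lines, and their EVI1-specific responses, -0.17 and -0.06, were not called (adjusted p = 0.60 and 0.85).

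POLR1C and POLR1D are the pair on which assembly of both Pol I and Pol III begins, and only the first had an EVI1-specific call. POLR1C read 8.98 with and 7.75 without tet in E10 at 48 h, 8.92 and 7.57 in E14, 8.83 and 8.15 in P2, and 8.72 and 8.33 in U937T. The 24 h values were 9.27 and 8.08 in E10, and 8.87 and 7.82 in E14. The clones without tet lay below the control lines without tet at 48 h. POLR1C was also the only member called between 48 and 6 h in cultures with tet, where it fell by 0.48 (adjusted p = 0.035), against 4.07% of all genes called lower and 3.1% called higher in that comparison. Its EVI1-specific response was -0.76 (SE 0.18, adjusted p = 0.021), which was no longer called without E10, without E14 or without U937T (adjusted p = 0.30, 0.46 and 0.17). For POLR1D the EVI1-specific response was -0.26 (SE 0.16, adjusted p = 0.43). Its other probe sets fell less in the clones at 48 h. A set with a mean log2 intensity of 9.70 changed by -0.17 in E10, -0.30 in E14, -0.36 in P2 and -0.16 in U937T. For a set with a mean of 8.84 these changes were -0.24, -0.19, -0.40 and -0.31.

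Pol III has peripheral subunits that Pol I and Pol II lack, among them the trimer of POLR3C, POLR3F and either POLR3G or its paralog POLR3GL, which is needed for initiation. POLR3G is known as the form of stem and tumor cells and POLR3GL as the form found more widely. These paralogs moved in opposite directions. POLR3G read 7.46 with and 4.55 without tet in E10 at 48 h, 7.50 and 4.93 in E14, 7.52 and 6.40 in P2, and 7.35 and 6.63 in U937T. POLR3GL read 9.24 and 9.93 in E10, 9.28 and 9.99 in E14, 9.13 and 9.48 in P2, and 9.43 and 9.44 in U937T. Without tet at 48 h, both clones lay below both control lines for POLR3G and above both for POLR3GL.

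The time course of POLR3G showed no separation at 6 h, where it read 7.44 with and 7.42 without tet in E10, and 7.34 and 7.35 in E14. At 12 h it read 7.76 and 7.52 in E10, and 7.88 and 7.71 in E14. After 24 h the readings were 7.78 and 6.66 in E10, and 8.01 and 6.61 in E14. Thus the gap opened between 12 and 24 h and widened until 48 h, and POLR3G was the only member whose change itself differed between 24 and 48 h (-1.47, SE 0.18, adjusted p = 0.00054), against 1.63% of all genes called lower and 2.07% called higher in that comparison. POLR3GL read 9.07 with and 9.15 without tet in E10 at 6 h, and 9.03 and 8.95 in E14. At 12 h it read 8.89 and 9.01 in E10, and 8.96 and 9.02 in E14. In the same order, the 24 h arrays gave 9.28 and 9.55 in E10, and 9.25 and 9.54 in E14. Its change was 0.28 at 24 h (adjusted p = 0.076) and 0.70 at 48 h (adjusted p = 8.8e-05).

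The EVI1-specific response of POLR3G was -1.82 (SE 0.18, 95% confidence interval from -2.21 to -1.43, adjusted p = 6.6e-05), the lowest of all members, and it was called in each of the alternatives run. That of POLR3GL was 0.52 (SE 0.14, adjusted p = 0.050) and just missed the threshold. It passed with a stricter intensity filter (adjusted p = 0.027) and without P2 (adjusted p = 0.031). In the control lines, POLR3G fell by 0.92 (adjusted p = 0.00055) and POLR3GL changed by 0.18 (adjusted p = 0.32). The POLR3G readings of 4.55 and 4.93 without tet lie near those of dim probe sets, so the size of its fall is uncertain and may be understated, and it rests on 1 probe set. Another one, weaker in signal (mean log2 intensity 5.57), changed by -0.52 in E10, -0.47 in E14, 0.11 in P2 and -0.28 in U937T at 48 h, and the last one (mean 2.73) lay near background. In GRCh38.p14, POLR3G lies at chr5:90473929-90514557 and POLR3GL at chr1:145964690-145978848. POLR3C, which lies on the same chromosome as POLR3GL at chr1:145824200-145844402, fell by 0.60 in the clones at 48 h (adjusted p = 0.00012).

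**Figure D3:**
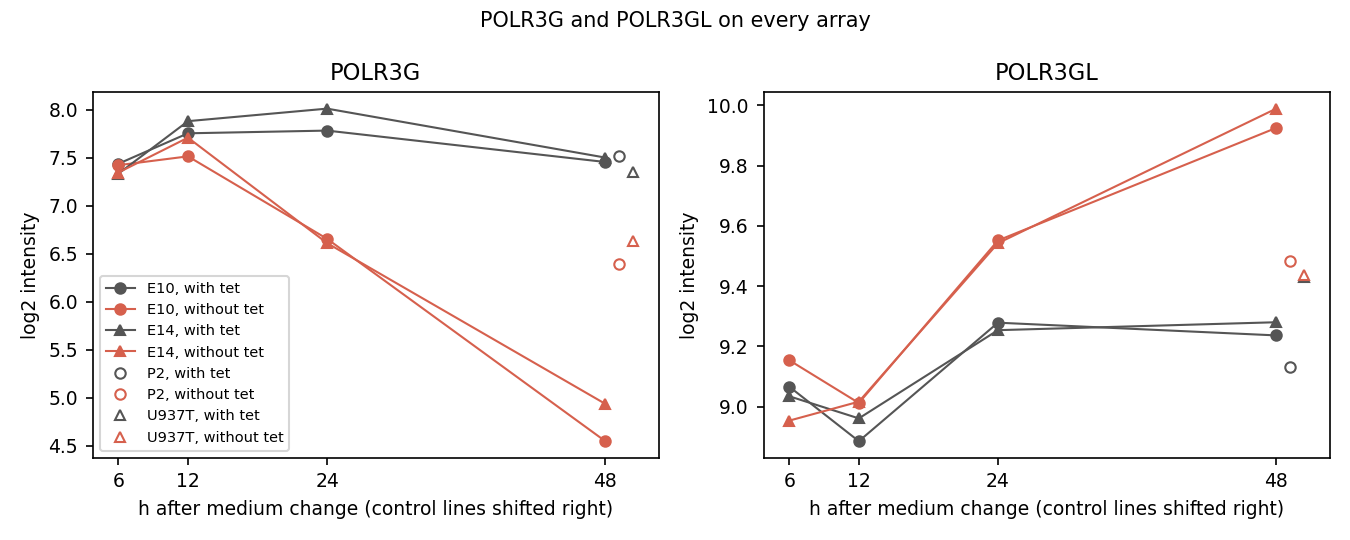
Log2 intensity of POLR3G (left) and POLR3GL (right) on each of the 20 arrays against hours after the medium change, in grey with tet and in red without tet, with filled symbols for E10 and E14 and open symbols, shifted to the right, for P2 and U937T. POLR3G without tet reached 4.55 and 4.93 in the clones at 48 h and POLR3GL 9.93 and 9.99, and the cultures with and without tet lay close together at 6 and 12 h. The axes differ in range, and levels of different probe sets cannot be compared.

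POLR3E and POLR3D form another pair particular to Pol III, which acts in initiation and termination. POLR3E read 10.19 with and 8.87 without tet in E10 at 48 h, 10.22 and 8.68 in E14, 10.07 and 9.32 in P2, and 10.00 and 9.51 in U937T. The 24 h arrays gave 10.41 and 9.43 in E10, and 10.30 and 9.03 in E14. With this probe set it was lower without tet in every line, and furthest in the clones. Another set (mean log2 intensity 9.13) also fell further in E10 and E14 (-1.48 and -1.57) than in P2 and U937T (-0.86 and -0.46). A weaker one (mean 6.70) fell less in E10 and E14 (-0.62 and -0.68) than in P2 and U937T (-1.04 and -1.76). The EVI1-specific response of POLR3E was -0.80 (SE 0.20, adjusted p = 0.032), but the call was lost whichever line was left out, with values from -0.93 to -0.68 and adjusted p from 0.055 to 0.46. POLR3D fell by 0.76 in the clones and by 0.42 in the control lines, with an EVI1-specific response of -0.34 (adjusted p = 0.33).

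POLR3A, the largest subunit of Pol III, moved little. It read 10.21 with and 9.77 without tet in E10 at 48 h, 10.14 and 9.82 in E14, 10.11 and 9.86 in P2, and 10.15 and 9.74 in U937T. After 24 h its values were 10.05 and 9.79 in E10, and 10.30 and 9.97 in E14. The clones and control lines without tet overlapped. Its change at 48 h was -0.38 in the clones (adjusted p = 0.061) and -0.33 in the control lines (adjusted p = 0.18), and the EVI1-specific response was -0.05 (SE 0.20, adjusted p = 0.94). POLR3B, the second largest subunit, fell by 1.04 in the clones (adjusted p = 3.0e-05) and by 0.45 in the control lines (adjusted p = 0.045), which left an EVI1-specific response of -0.58 (adjusted p = 0.096). POLR3K, which acts in termination, fell by 0.81 in the clones and had an EVI1-specific response of -0.52 (adjusted p = 0.14). POLR3F changed by -0.04 in the clones and -0.01 in the control lines.

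In Pol II, the catalytic subunits were not called in any comparison made. POLR2A, the largest subunit, whose tail of repeats is phosphorylated during the transcription cycle, read 9.78 with and 10.34 without tet in E10 at 48 h, 10.18 and 10.34 in E14, 10.02 and 10.35 in P2, and 10.09 and 10.15 in U937T. At 24 h it read 10.22 and 10.42 in E10, and 10.53 and 10.59 in E14. All lines were higher without tet at 48 h, by 0.56 in E10, 0.17 in E14, 0.33 in P2 and 0.07 in U937T, and the groups overlapped. The change in the clones was 0.36 (adjusted p = 0.091, not called). The EVI1-specific response of POLR2A was 0.17, with a 95% confidence interval from -0.30 to 0.63 (adjusted p = 0.77), and that of POLR2B, the second largest subunit, -0.11, with an interval from -0.41 to 0.18 (adjusted p = 0.75).

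POLR2I was the exception among the subunits specific to Pol II. It read 10.44 with and 9.58 without tet in E10 at 48 h, 10.51 and 9.60 in E14, 10.51 and 10.09 in P2, and 10.54 and 10.09 in U937T. At 24 h it read 10.65 and 10.19 in E10, and 10.62 and 10.15 in E14. The lines with tet were alike, and without tet the clones lay below the control lines. The EVI1-specific response was -0.45 (SE 0.12, adjusted p = 0.039), and the call was lost when any line was left out (adjusted p from 0.12 to 0.77). POLR2D had a lower estimate of -0.65 but a wider error (SE 0.29, adjusted p = 0.26). For POLR2C, POLR2G, POLR2J and POLR2J2 the EVI1-specific response lay between -0.08 and 0.30. POLR2J and POLR2J2 are near-identical copies, so that their signals may be mixed and are uncertain.

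The 6 and 12 h arrays of the clones served as the early part of the course, and there the members showed little movement. Over these 8 arrays, POLR1A ranged from 8.74 to 9.40 (median 9.06), POLR1B from 9.35 to 9.75 (9.54), POLR1C from 8.98 to 9.47 (9.29), POLR1E from 9.12 to 9.47 (9.33) and POLR1G from 10.01 to 10.33 (10.09). Likewise, POLR2A ranged from 9.79 to 10.45 (10.24), POLR2I from 10.31 to 10.49 (10.42), POLR3A from 9.40 to 10.33 (10.08) and POLR3E from 10.11 to 10.62 (10.38). Apart from POLR2A and POLR3A, the arrays without tet at 48 h in both clones lay below the whole early range for each of these genes.

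By limma, 0 of the 30 members were called at 6 h, where 0% of all genes were called in either direction, and at an unadjusted p under 0.05 no member was lower or higher either, against 1.74% and 1.55% of all genes. At 12 h again 0 members were called, against 0.0112% of all genes called lower and 0.0168% called higher, and at an unadjusted p under 0.05, 1 member was lower and none higher, against 3.8% and 2.55% of all genes, a share near the background. MECOM itself had risen by 2.65 at that time. At 24 h, 15 members were called lower and none higher, against 9.16% and 7.97% of all genes, with a median of -0.32 for the members and 0.01 for all genes. All 6 subunits specific to Pol I (median -1.001) and 6 of 9 specific to Pol III (median -0.44) were among them, beside POLR1C, POLR2H and POLR2I. The calls at 24 h included E14 arrays with the highest difference between 3′ and 5′ signal, whose part in the result was not tested beyond these values: without the E14 arrays at 12 and 24 h, 7 members were called, without the whole of E14 6, and without E10 7, whereas with that difference as a covariate 18 were called.

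**Figure D4:**
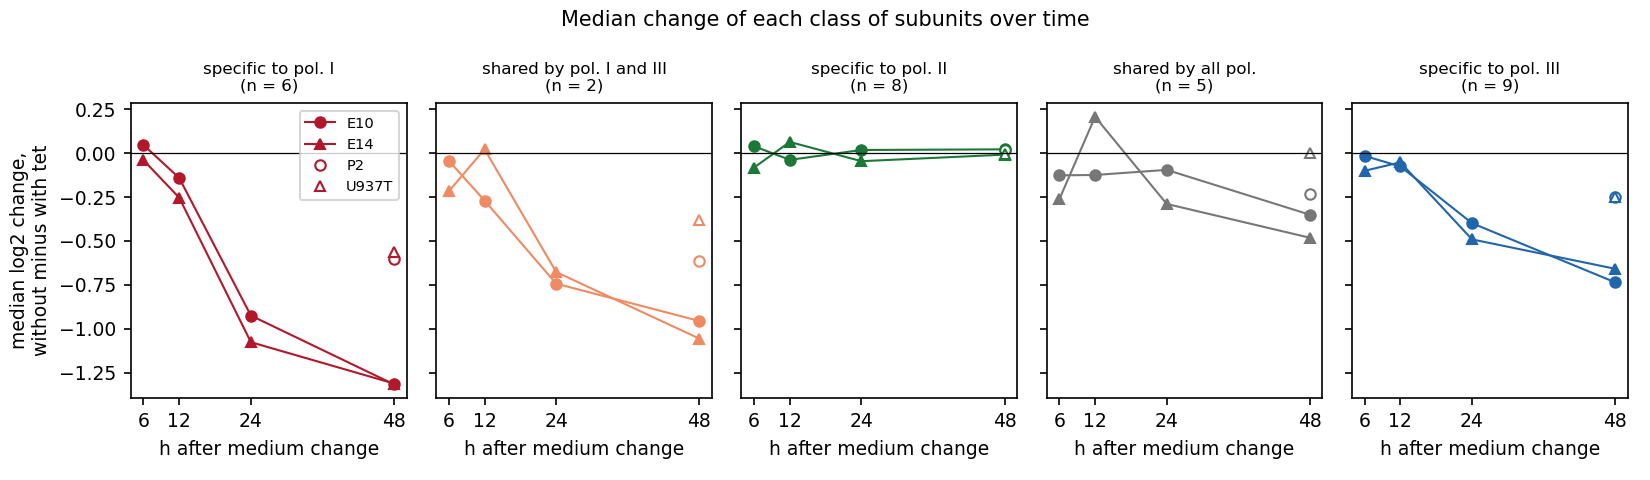
Median log2 change (without minus with tet) of each class of subunits at 6, 12, 24 and 48 h after the medium change, with filled symbols and lines for E10 and E14 and open symbols at 48 h for P2 and U937T. In the clones, the median of the 6 subunits specific to Pol I reached -0.93 and -1.08 at 24 h and -1.32 and -1.31 at 48 h, and the median of the 8 subunits specific to Pol II stayed near 0. Control lines were not measured before 48 h.

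Under the fold part of the study's criterion, at least 2-fold at 24 and at 48 h in both clones with any probe set of 1 symbol, 6 members qualified, all lower: POLR1B, POLR1C, POLR1E, POLR1G, POLR3E and POLR3G. At 1.5-fold POLR1A was added. With the brightest probe set of each gene alone, POLR3E no longer met the 2-fold criterion. The share of all genes that meet it was not computed, so these counts have no background to be read against. None of these is a subunit of Pol II. Of the 21 members with more than 1 probe set, 17 had more than 1 with a mean log2 intensity of at least 5, and 12 of these 17 were called lower in the clones at 48 h. In all 12, each such probe set was lower without tet in both clones, although sizes differed. For example, changes among the POLR1B sets ran from -0.22 to -1.58 and those among the POLR3E sets from -0.62 to -1.57. The set that gave the call is among those compared, so part of this agreement was fixed in advance. Its share over all genes called lower was not computed. This comparison also leaves out the control lines. The POLR3E set with the smallest fall changed by -0.62 in E10 and -0.68 in E14, but by -1.04 in P2 and -1.76 in U937T. The POLR1B set with the smallest fall changed by -0.35 and -0.22 in E10 and E14, and by -0.21 and -0.70 in P2 and U937T. Their other sets compared here fell further in both clones than in both control lines.

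Factors that work with the polymerases were described from lists of known genes. The counts of these lists stand against 14.7% of all genes called lower and 16% called higher in the clones at 48 h, and 3.03% and 2.43% in the EVI1-specific response. Among 8 initiation and termination factors of Pol I, none had an EVI1-specific call (2 lower in the clones at 48 h, median -0.21), and among 17 general initiation factors of Pol II none did either (4 lower and 2 higher at 48 h, median -0.14). With so few genes, these counts lay near the shares of all genes. Of 18 elongation factors of Pol II, ELL2 alone had an EVI1-specific call, with 0.69 (adjusted p = 0.0090). Of 16 genes that comprise the Pol III initiation factors and the Pol III repressor MAF1, GTF3C4, a subunit of the factor that binds transfer RNA promoters, was lower (-0.53, adjusted p = 0.038), and MAF1 was not called (-0.07, adjusted p = 0.86). In the clones at 48 h, 5 of these 16 were lower and 1 was higher.

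Among 15 factors for assembly and nuclear import of the enzymes, 6 were lower in the clones at 48 h (14.7% of all genes) and 2 had a lower EVI1-specific call (3.03% of all genes). These were RUVBL1 (-1.02, adjusted p = 0.0030) and RUVBL2 (-0.61, adjusted p = 0.0094), the ATPases that together serve in the chaperone complex for polymerase assembly. Mitochondria have their own polymerase, and of 6 genes for it and its factors, POLRMT, the enzyme itself (-0.60, adjusted p = 0.0497), and TFAM, which binds mitochondrial promoters (-0.68, adjusted p = 0.013), had EVI1-specific calls, and 4 of the 6 were lower in the clones at 48 h, beside the same shares of all genes. CRCP, a Pol III subunit under another symbol, was not called (-0.05, adjusted p = 0.94). MYC was the only gene with an EVI1-specific call among 9 genes for MYC and its partners (-2.56, SE 0.21, adjusted p = 1.8e-05). In the clones at 48 h, 1 of these 9 genes was lower and 4 were higher, against 14.7% and 16% of all genes. MYC changed by -2.71 at 24 h and -3.47 at 48 h in the clones and by -0.91 in the control lines (adjusted p = 0.0016), so that MYC RNA and the Pol I subunits fell in the same cultures. Whether these changes are linked was not tested.

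The upstream sequences of the members were searched for 4 short motifs, because many members were lower in the same cultures as MYC, which binds the E-box. RefSeq promoters (GRCh38.p14) were at hand for 23 of the 30 members, and the 250 bases before the start site were read on both strands. None was at hand for POLR1E, POLR2G, POLR2I, POLR2J, POLR2K, POLR3D and POLR3G, so these genes were not searched. Among them, POLR3G, POLR1E and POLR2I had EVI1-specific calls. The E-box CACGTG was found in 3 of 23 members (13.0%), against 6.49% of 27305 promoters and 8.12% of the 14003 promoters of genes tested. It was present in 2 of 15 members that were lower in the clones at 48 h and in 1 of 8 that were not, so its presence did not separate these sets. The 3 windows that hold it are shown from base -250 to base -1, in the direction of the gene, with the E-box in capitals and, for POLR3A, the ETS-type motif CCGGAAGT as well. In POLR1G (chr19:45406394-45406643, plus strand) the E-box starts at -12, in POLR3C (chr1:145823950-145824199, plus strand) at -196, and in POLR3A (chr10:78029516-78029765, minus strand) at -35.
POLR1G: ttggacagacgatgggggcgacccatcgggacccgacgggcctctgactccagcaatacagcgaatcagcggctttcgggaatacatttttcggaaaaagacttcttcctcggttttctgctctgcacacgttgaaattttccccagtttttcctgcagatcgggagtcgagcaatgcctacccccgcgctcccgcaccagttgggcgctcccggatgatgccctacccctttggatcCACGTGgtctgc
POLR3C: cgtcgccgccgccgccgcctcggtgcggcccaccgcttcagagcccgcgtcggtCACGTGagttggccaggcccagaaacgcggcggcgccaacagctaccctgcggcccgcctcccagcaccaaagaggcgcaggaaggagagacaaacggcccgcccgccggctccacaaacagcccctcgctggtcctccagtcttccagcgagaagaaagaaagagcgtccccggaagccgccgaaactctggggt
POLR3A: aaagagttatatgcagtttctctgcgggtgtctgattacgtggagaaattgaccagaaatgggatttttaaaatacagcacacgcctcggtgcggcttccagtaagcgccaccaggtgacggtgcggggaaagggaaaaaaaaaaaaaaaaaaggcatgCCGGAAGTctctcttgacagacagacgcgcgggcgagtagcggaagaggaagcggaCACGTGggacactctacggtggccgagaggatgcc

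These 3 genes did not move alike, for the change in the clones at 48 h was -1.67 for POLR1G, -0.60 for POLR3C and -0.38 for POLR3A, the last of which was not called. The ETS-type motif was found in 4 of 23 members (17.4%; POLR1C, POLR2C, POLR2F and POLR3A), against 3.64% of all promoters and 5.47% of those of genes tested, and 2 of these 4 genes were lower in the clones. Words known to be bound by the first and the second zinc finger domain of EVI1, GACAAGATA and GAAGATGAG, were in 0 of 23 member promoters, and in 0.0989% and 0.26% of all promoters. The 4 motifs do not overlap one another in the printed windows. A match describes letters only, and its absence from 250 bases says nothing of the factor.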

How the data were processed

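Total RNA of the 20 cultures was hybridized to Affymetrix HG-U133 Plus 2.0 arrays. The authors deposited log2 intensities made by Robust Multi-array Analysis, which corrects the background, quantile normalizes the arrays and summarizes the probes of a set by median polish. No further normalization was applied, and array medians ran from 5.25 to 5.35. Array intensities have no read depth, so precision depends on how many arrays there are. Of 54675 probe sets, 41097 carry 1 gene symbol, 1801 several and 11777 none in the platform annotation. Genes needed a mean log2 intensity of at least 3 in both clones at 24 and 48 h and in both control lines at 48 h, and each gene was represented by its brightest probe set on average. All 30 members passed.

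The model held a term for each of 10 groups and a fixed block for the line. It had 8 residual and 5.74 prior degrees of freedom (limma 3.58.1, R 4.3.3) and was tested on simulated data. Numbers 1 and 2 pair the same line across cultures, from the labels. Across genes, the deviation between E10 and E14 correlated between cultures with a median r of 0.11 (28 pairs, lowest -0.22, highest 0.52). Between P2 and U937T, r was -0.21. Motifs were counted with Python 3.11.15 in the first listed start site of each gene. Alternatives covered the filter, the probe set, centring, the variance model, the block, the arrays in the fit, the RNA integrity measure as a covariate and each line left out. The block crossed for the control lines was added after seeing the data.

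The members, the lists of partner genes and the motifs were chosen with earlier results of these data known. Named with values in every array are members called in the EVI1-specific response, the largest subunit of each enzyme, and POLR3G with POLR3GL. From each partner list the genes called in that response are named, besides MYC, MAF1, CRCP and MECOM. CRCP was added after its values were seen, being the only measured gene of its list.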

Additional observations from a re-analysis of the deposited data

Results flagged for a closer look

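For 7 members, the response to tet withdrawal at 48 h differed between the EVI1 clones and the control lines by limma's test of the difference itself. The differences were -1.82 for POLR3G, -1.02 for POLR1E, -0.997 for POLR1G, -0.82 for POLR1B, -0.80 for POLR3E, -0.76 for POLR1C and -0.45 for POLR2I on the log2 scale. With the probe set used, both E10 and E14 fell further than P2 and U937T in each of these genes, which the calls in part require. With a weaker POLR3E set both clones fell less than both control lines. With a weaker set of POLR1B and a weaker set of POLR1E, the clones and the control lines overlapped. P2 is 1 clone and U937T the parental line, so that differences between lines other than EVI1 cannot be told apart from it.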

How the results depend on the processing

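The count of 7 EVI1-specific calls among the members became 4 with the 48 h arrays only, and from 1 to 5 when a line was left out. For the response of the clones, 15 calls at 24 h became 7 when the 12 and 24 h arrays of E14 were left out, and from 6 to 15 with a line left out, and 20 calls at 48 h became 11 to 20. For the control lines, 14 calls became 8 with the probe set of the largest spread, 6 with the 48 h arrays only, 9 with the same E14 arrays left out, and 4 to 7 with a line left out. The single call for the change from 24 to 48 h became 3 with a filter at a mean of 5, 3 with an intensity trend and robust variance, 2 with the RNA integrity measure as a covariate, and from 0 to 1 with a line left out. The single call for time in culture with tet became 5 with the filter at 5, 2 after centring of the arrays, 5 with the trend, 0 with the covariate, 3 with those E14 arrays left out, 5 with the crossed block and 0 to 2 with a line left out.

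The median EVI1-specific response of subunits specific to Pol I was -0.55 with the probe set of the largest spread, -0.65 after centring and -0.59 to -0.54 with a line left out. For Pol III it was -0.47, -0.43 and -0.43 to -0.35. POLR1H turned to 0.082 (adjusted p = 0.83) in the clones at 48 h with the probe set of the largest spread, which lies near background. Centring moved the median of all genes by at most 0.07. With the block crossed for the control lines, 8 EVI1-specific calls were made. Without the replicate block, 7 EVI1-specific, 15 (24 h), 19 (48 h) and 12 (control) calls were made. Over the single members, 360 of the alternative EVI1-specific values kept their side of the threshold, 24 lost it and 6 gained it. Leaving out a line leaves groups of 1 array, which are assumed to vary like the other lines. The causes of these shifts were not tested.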
